A study of Mus musculus with 9 samples.

Results

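The genes described here make, recycle and break down glutathione or import the cystine it is built from. The 10 members, *Gclc*, *Gclm*, *Gss*, *Gsr*, *Glrx*, *Slc7a11*, *Slc3a2*, *Chac1*, *Ggct* and *Oplah*, were chosen by symbol for their role, and all 10 are listed in each of the 3 deposited tables, among 14442 genes whose reads could be followed in every library. RNA was sequenced from neonatal rat ventricular myocytes (NRVMs), isolated from Sprague-Dawley rats 1 or 2 days old. The cells were kept in culture for 48 h, infected with adenovirus at a multiplicity of infection of 50 and collected 48 h later. The adenoviruses carried LacZ (a bacterial enzyme, the control), mouse Nrf1 or mouse Nrf2 behind the CMV promoter, which is active in any infected cell and not only in cardiomyocytes, together with a red fluorescent protein. There were 3 libraries in each of the 3 groups and no uninfected group, so the virus was common to all 9 libraries. The labels name the organism as mouse and the cells as rat, and the values were treated as those of rat genes.

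Glutathione is a small thiol peptide made from glutamate, cysteine and glycine, and it is the main soluble reductant of the cytosol. Its synthesis is limited by glutamate-cysteine ligase and by the supply of cysteine, which many cells import as cystine in exchange for glutamate. Oxidised glutathione is returned to the reduced form with NADPH, and spent or surplus glutathione is taken apart into amino acids through 5-oxoproline. Nrf1 and Nrf2 are related transcription factors of the CNC family that bind antioxidant response elements. Nrf2 is best known for activating glutathione and NADPH genes, and Nrf1 for activating proteasome genes. Several of the members (*Slc7a11*, *Slc3a2* and *Chac1*) are also textbook targets of Atf4, the factor of the amino acid and endoplasmic reticulum stress response.

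The deposited values are group means of normalised read counts. Because each group appears in 2 tables with slightly different scaling, the whole-number reads of its 3 libraries could be solved from the deposited means, and this gave 1 solution for 99.9931% of the 14443 genes listed in all 3 tables. Levels below are these reads after scaling for depth ("normalised reads"), given in the order of the deepest library (a), the middle library (b) and the shallowest library (c) of each group. The letters are not the replicate numbers of the labels, which the tables do not carry. Recovered totals ran from 7874370 to 11905027 reads per library, and the members had between 49 and 3907 reads in a library. Differences are log2 ratios estimated by limma over all 9 libraries, with their standard error (SE) and a p-value adjusted over 11661 genes. These p-values measure the spread between libraries, which may be technical, since no source used here says that the libraries came from separate cultures.

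In Nrf1 samples the synthesis and recycling enzymes rose, while the cystine transporter subunits, *Glrx* and *Chac1* fell. In Nrf2 samples the same enzymes were higher still, *Slc7a11* and *Glrx* rose, and *Slc3a2* and *Chac1* fell. By the ratio of the deposited means, 3 members were more than 1.5-fold higher in Nrf1 than in LacZ samples (11.9% of all genes were) and 3 were more than 1.5-fold lower (18.1% of all genes). With Nrf2, 6 members were more than 1.5-fold higher than in LacZ samples (9.78% of all genes) and 1 was lower (10.9% of all genes). By limma, 4 members were higher (34.8% of all genes tested) and 4 lower (32.6%) with Nrf1, and 6 were higher (29.2%) and 3 lower (26.3%) with Nrf2. The 3 factor libraries lay wholly above or wholly below the 3 LacZ libraries for 8 members with Nrf1 (69.8% of all genes tested) and for 8 with Nrf2 (61.4%). A call by itself was thus common among all genes, and the values that follow give the size of each change.

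**Figure D1:**
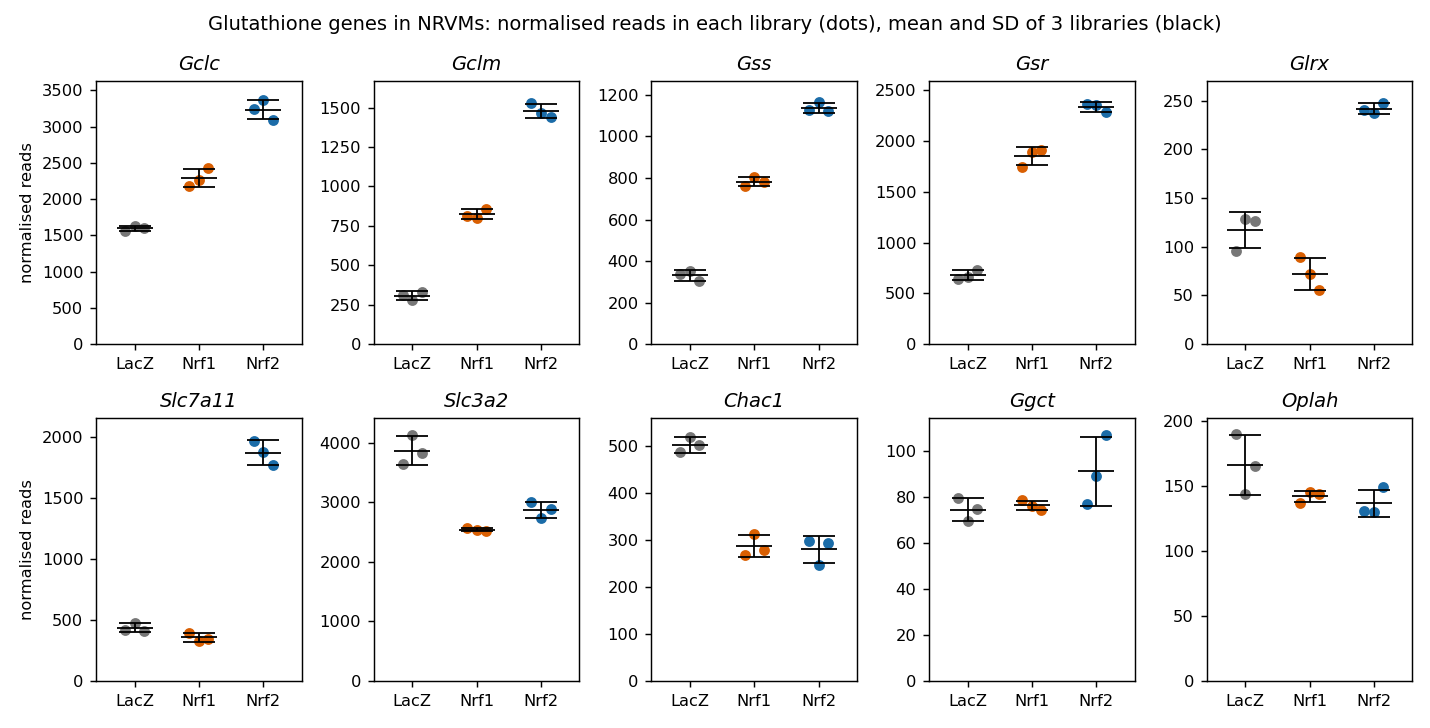
Normalised reads of the 10 members (vertical axis, from 0) in the LacZ, Nrf1 and Nrf2 groups. Dots are the 9 libraries, deepest to shallowest from left to right within a group, and black bars are the mean and SD of 3 libraries. The levels of *Gclc*, *Gclm*, *Gss* and *Gsr* step up from LacZ to Nrf1 to Nrf2, *Slc7a11* and *Glrx* are highest in Nrf2 samples and lowest in Nrf1 samples, and *Chac1* and *Slc3a2* are highest in LacZ samples.

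*Gclm* encodes the modifier subunit of glutamate-cysteine ligase, which raises the activity of the enzyme. Its normalised reads were 315, 277 and 331 in LacZ samples, 814, 797 and 858 in Nrf1 samples and 1527, 1467 and 1439 in Nrf2 samples. The groups did not overlap, and every Nrf2 library was above every Nrf1 library. The mean was 308 ± 27.4 (SD, n = 3) with LacZ, 823 ± 31.4 with Nrf1 and 1477 ± 44.9 with Nrf2. *Gclm* thus rose by 1.42 on the log2 scale with Nrf1 (SE 0.0593, adjusted p = 2.89e-13) and by 2.27 with Nrf2 (SE 0.0593, adjusted p = 7.60e-16). The difference between Nrf2 and Nrf1 samples was 0.84 (adjusted p = 1.33e-09). Among the 11661 genes ranked from the highest log2 ratio, *Gclm* stood at place 199 with Nrf1 and at place 155 with Nrf2.

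*Gclc* encodes the catalytic subunit of the same ligase, and it changed less than its partner. LacZ samples held 1557, 1626 and 1608 normalised reads, Nrf1 samples 2179, 2271 and 2430, and Nrf2 samples 3238, 3364 and 3098. The levels again stood apart in the same order, LacZ below Nrf1 below Nrf2. The log2 ratio was 0.52 with Nrf1 (SE 0.0425, adjusted p = 4.32e-09), which is under 1.5-fold, and 1.02 with Nrf2 (adjusted p = 6.25e-13). Nrf2 samples exceeded Nrf1 samples by 0.50 (adjusted p = 1.96e-08).

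The unequal change of the ligase subunits can be read within each library, where depth and scaling cancel. For every 100 reads of *Gclc*, LacZ libraries had between 17.1 and 20.6 reads of *Gclm*. Nrf1 libraries had between 35.1 and 37.3, and Nrf2 libraries between 43.6 and 47.1. The 3 ranges did not overlap. The log2 difference of this ratio was 0.90 for Nrf1 and 1.25 for Nrf2 against LacZ and 0.35 for Nrf2 against Nrf1, each with an exact permutation p of 0.1 (two-sided), which is the smallest that 3 libraries against 3 can give. After adjustment over the 6 comparisons of 2 such pairs the value was also 0.1, so this test could not pass 0.05 whatever the data. Transcript length and the removal of duplicate reads also enter such a ratio, so its change between groups is given here and not the balance of the subunits.

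**Figure D2:**
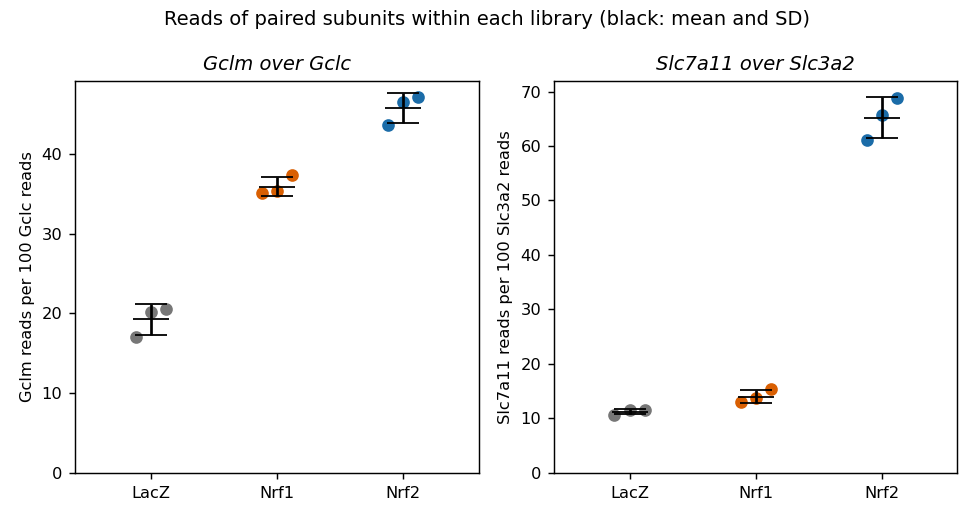
Reads of *Gclm* per 100 reads of *Gclc* (left) and reads of *Slc7a11* per 100 reads of *Slc3a2* (right), computed within each library (dots, lowest to highest in each group) with the mean and SD of 3 libraries in black. The left ratio rises from LacZ to Nrf1 to Nrf2, whereas the right ratio is 10.7 to 15.3 in LacZ and Nrf1 libraries and at least 61.2 in Nrf2 libraries.

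Glutathione synthetase, which adds glycine in the final step, is encoded by *Gss*. Its normalised reads were 339, 354 and 304 with LacZ, 760, 806 and 782 with Nrf1 and 1126, 1163 and 1122 with Nrf2. No library of a group reached the range of another. *Gss* rose by 1.24 with Nrf1 (SE 0.0560, adjusted p = 9.25e-13) and by 1.78 with Nrf2 (adjusted p = 1.00e-14). The step from Nrf1 to Nrf2 was 0.54 (adjusted p = 2.39e-07).

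*Gsr* encodes glutathione reductase, which returns oxidised glutathione to the reduced form at the expense of NADPH. LacZ samples had 642, 659 and 732 normalised reads, Nrf1 samples 1746, 1892 and 1905, and Nrf2 samples 2361, 2354 and 2279. Of the 10 members, *Gsr* had the largest log2 ratio with Nrf1, 1.45 (SE 0.0490, adjusted p = 1.66e-14, place 192 from the highest), though its SE does not separate it from *Gclm*. With Nrf2 the log2 ratio was 1.78 (adjusted p = 1.39e-15). Among *Gclc*, *Gclm*, *Gss* and *Gsr*, *Gsr* had the smallest difference between the factors, 0.34 in favour of Nrf2 (SE 0.0490, adjusted p = 1.38e-05).

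*Glrx* encodes glutaredoxin, which removes glutathione from proteins, and it moved in opposite directions with the factors. It was a low gene here, with 95, 114 and 107 unscaled reads in the LacZ libraries, 94, 74 and 49 in the Nrf1 libraries and 290, 271 and 254 in the Nrf2 libraries. After scaling these were 95.5, 128 and 127 normalised reads with LacZ, 89.0, 72.2 and 56.0 with Nrf1 and 240, 237 and 248 with Nrf2. The Nrf2 libraries stood far above the rest, while the highest Nrf1 library lay just under the lowest LacZ library. The log2 ratio was -0.70 with Nrf1 (SE 0.146, adjusted p = 0.000386) and 1.06 with Nrf2 (adjusted p = 6.69e-06). Without Nrf1 library c, the decrease with Nrf1 was 0.52 on the log2 scale, under 1.5-fold. Directly compared, Nrf2 samples were above Nrf1 samples by 1.76 (SE 0.146, adjusted p = 1.34e-08).

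**Figure D3:**
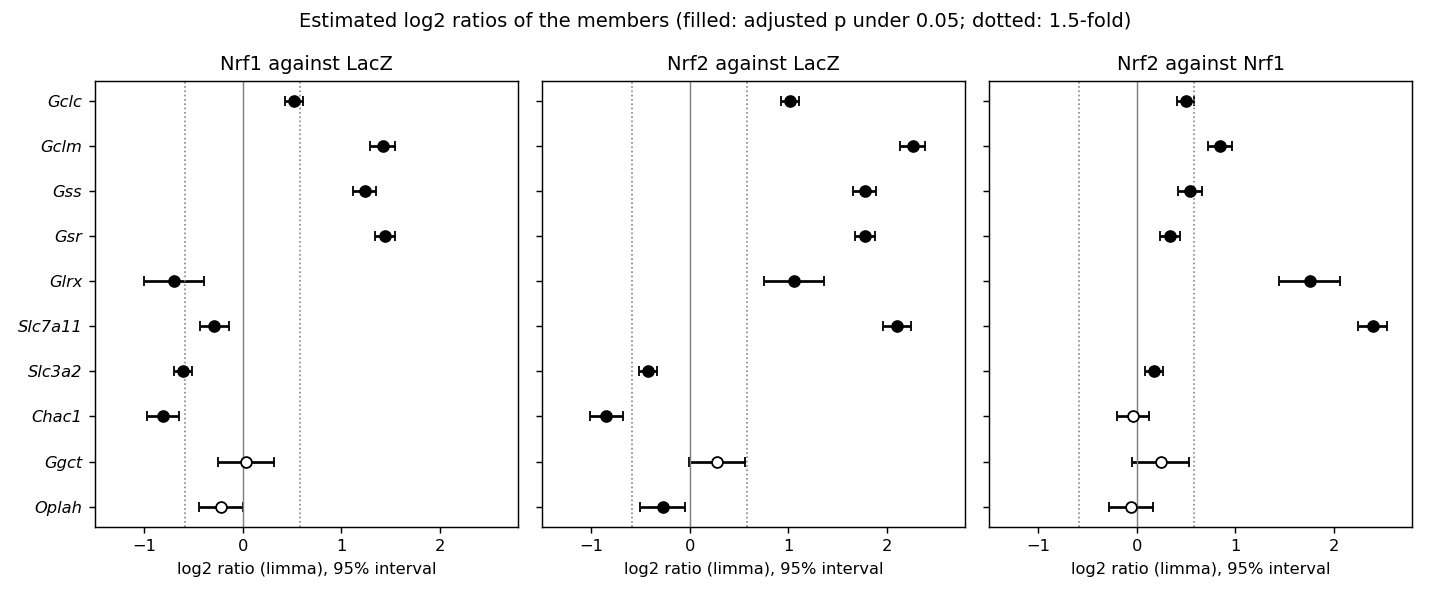
Log2 ratios of the members with 95% confidence intervals (limma) for Nrf1 against LacZ, Nrf2 against LacZ and Nrf2 against Nrf1. Filled points have an adjusted p under 0.05, the solid line is no difference and the dotted lines are 1.5-fold. *Slc7a11* and *Glrx* lie left of the solid line in the Nrf1 panel and right of it in both Nrf2 panels.

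*Slc7a11* encodes the light chain of the cystine and glutamate exchanger, the subunit that carries the substrate. In LacZ samples it had 417, 477 and 409 normalised reads, in Nrf1 samples 392, 328 and 347, and in Nrf2 samples 1967, 1875 and 1766. The Nrf1 libraries were below all LacZ libraries by a narrow margin, and the Nrf2 libraries were above every other library by a wide one. The mean went from 434 ± 37.2 (SD, n = 3) with LacZ to 355 ± 33.1 with Nrf1 and 1869 ± 100 with Nrf2. *Slc7a11* fell by 0.29 on the log2 scale with Nrf1 (SE 0.0696, adjusted p = 0.00129), which is under 1.5-fold, and rose by 2.11 with Nrf2 (SE 0.0696, adjusted p = 1.98e-14). The difference between the factors was the largest among the members at 2.40 (adjusted p = 7.55e-15), a 5.24-fold ratio of the deposited means, and took place 136 of the 11661 genes.

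*Slc3a2* encodes the heavy chain that brings this and several other amino acid exchangers to the cell surface, and it did not follow its partner. Its normalised reads were 3640, 4125 and 3824 with LacZ, 2561, 2536 and 2522 with Nrf1 and 2996, 2726 and 2887 with Nrf2. Both factor groups lay below all LacZ libraries. *Slc3a2* fell by 0.60 with Nrf1 (SE 0.0432, adjusted p = 7.02e-10) and by 0.43 with Nrf2 (adjusted p = 1.37e-07), and Nrf2 samples were above Nrf1 samples by 0.18 (adjusted p = 0.00219). The change with Nrf1 sat near 1.5-fold and dropped to 0.56 when LacZ library b was left out.

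Within a library, 100 reads of *Slc3a2* were matched by 10.7 to 11.6 reads of *Slc7a11* with LacZ, 12.9 to 15.3 with Nrf1 and 61.2 to 68.8 with Nrf2. The ranges were separate for all 3 pairs of groups. The log2 differences were 0.31 for Nrf1 and 2.54 for Nrf2 against LacZ and 2.22 for Nrf2 against Nrf1 (exact permutation p = 0.1 for each, two-sided, the smallest possible). The small rise with Nrf1 came with decreases of both transcripts, of which *Slc3a2* had the larger.

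*Chac1* encodes a cytosolic enzyme that breaks glutathione down. It had 487, 520 and 502 normalised reads in LacZ samples, 269, 313 and 279 in Nrf1 samples and 298, 248 and 294 in Nrf2 samples. The factor groups overlapped each other and lay well below LacZ. *Chac1* fell by 0.81 with Nrf1 (SE 0.0788, adjusted p = 4.79e-08) and by 0.85 with Nrf2 (SE 0.0788, adjusted p = 4.70e-08). Between Nrf2 and Nrf1 samples the log2 ratio was -0.04 with a 95% interval from -0.20 to 0.13 (adjusted p = 0.714).

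*Ggct* and *Oplah* act one after the other on the breakdown products, *Ggct* releasing 5-oxoproline from gamma-glutamyl peptides and *Oplah* opening it to glutamate. Both were low. *Ggct* had 79.4, 69.6 and 74.7 normalised reads with LacZ, 78.6, 76.1 and 74.3 with Nrf1 and 77.1, 89.3 and 107 with Nrf2, and these ranges overlapped. Its log2 ratio was 0.04 with Nrf1 (95% interval -0.25 to 0.32, adjusted p = 0.831) and 0.28 with Nrf2 (-0.01 to 0.56, adjusted p = 0.0939). Without Nrf2 library a, the lowest of its group for this gene, the Nrf2 value became 0.39 (adjusted p = 0.0336).

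*Oplah* had 190, 144 and 166 normalised reads with LacZ, 137, 145 and 144 with Nrf1 and 131, 130 and 149 with Nrf2. Here, too, the groups overlapped. The log2 ratio was -0.22 with Nrf1 (95% interval -0.44 to 0.01, adjusted p = 0.0822) and -0.28 with Nrf2 (-0.50 to -0.05, adjusted p = 0.0367). The Nrf2 call rests on few libraries, since the adjusted p was 0.185 without LacZ library a, 0.0710 without LacZ library c, 0.1098 without Nrf2 library a and 0.112 without Nrf2 library b. With Nrf1 the adjusted p was 0.0140 without LacZ library b. At the counts of these genes, differences of the size seen could not be settled.

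Set against all genes, the members spread to both sides with Nrf1 and mostly to the higher side with Nrf2. The median log2 ratio of the 10 members was -0.09 with Nrf1, 1.04 with Nrf2 and 0.42 for Nrf2 against Nrf1, beside 0.00441, -0.00215 and 0.00239 for all genes tested. In the direct comparison, 7 members were higher with Nrf2 by limma (27.5% of all genes tested) and 0 were lower (26.8%). More than 1.5-fold higher were 3, *Gclm*, *Slc7a11* and *Glrx* (12.3% of all genes by the deposited means), and 0 were more than 1.5-fold lower (5.16%). The libraries of both factors did not overlap for 7 members (62.9% of all genes tested). The remaining 3, *Chac1*, *Ggct* and *Oplah*, all breakdown enzymes, had intervals that held 0. For *Ggct* the log2 ratio of Nrf2 to Nrf1 was 0.24 (95% interval -0.05 to 0.53) and for *Oplah* it was -0.06 (-0.28 to 0.17).

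**Figure D4:**
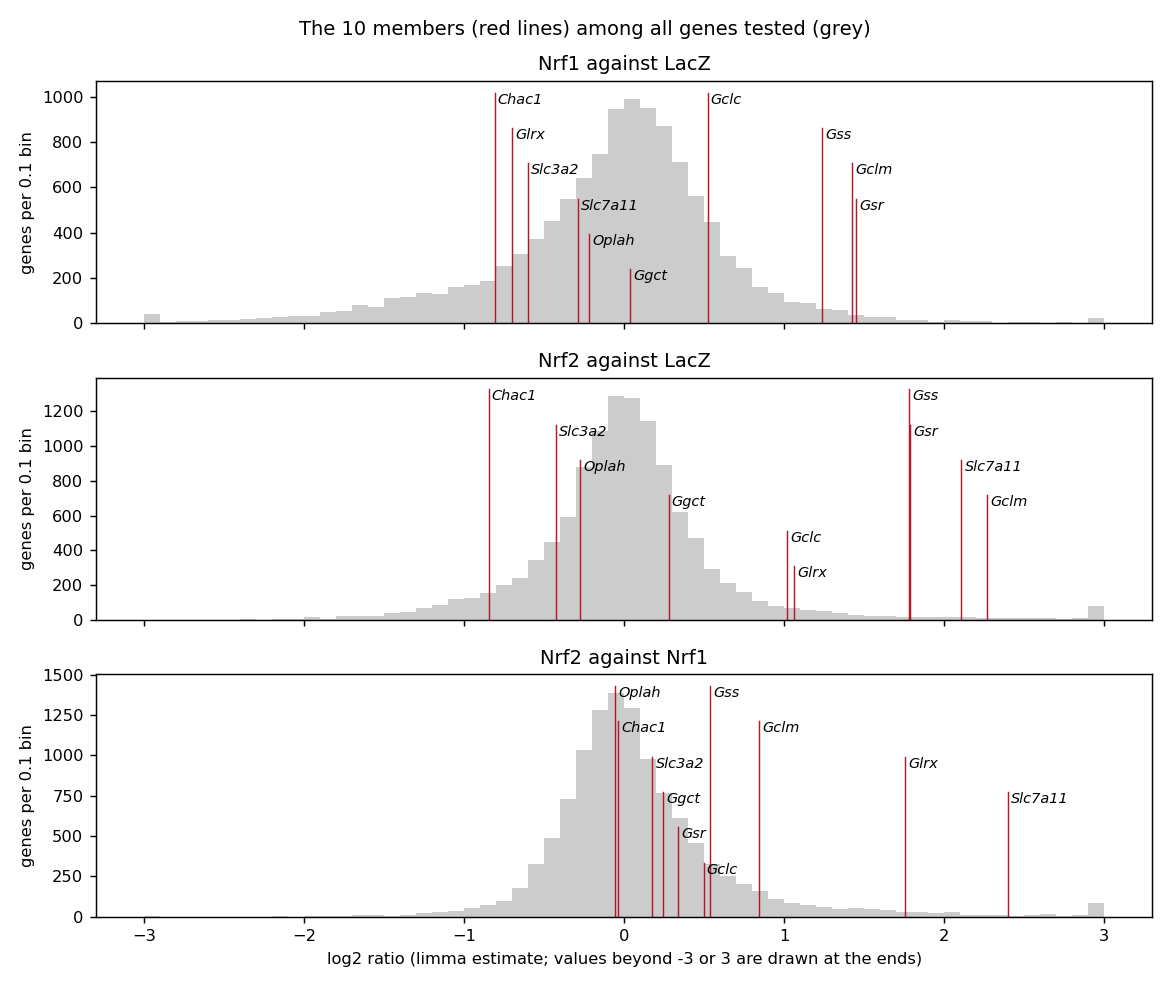
Distribution of the limma log2 ratios of the 11661 genes tested (grey, genes per bin) in the 3 comparisons, with the 10 members as red lines whose heights only make room for the names. *Gclm*, *Gsr* and *Gss* lie in the upper tail with Nrf1, and *Slc7a11* joins them with Nrf2.

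The libraries also differed in the markers of other cells of the culture. Cardiomyocyte markers were abundant in all groups. Reads were recovered for 13 of 14 listed genes, and no level of *Ttn* was obtained, which does not mean that it was absent. Summed levels were 156580 to 177175 normalised reads with LacZ, 168164 to 170562 with Nrf1 and 185681 to 189677 with Nrf2. Singly, 7 of the 13 cardiomyocyte markers fell and 3 rose with Nrf1, and 2 fell and 8 rose with Nrf2. The myoglobin gene *Mb* had a log2 ratio of -1.83 with Nrf1 and *Myh7* of -1.06, while the abundant *Actc1* had 0.64. The summed level of 10 fibroblast markers was 123655 to 129764 with LacZ, 31628 to 34117 with Nrf1 and 64456 to 69666 with Nrf2, with 10 markers lower with Nrf1 and 9 with Nrf2. Leukocyte markers (10 genes) summed to 2078 to 3082, 1173 to 1237 and 1126 to 1253, and endothelial markers (8 genes) to 1409 to 1457, 962 to 1051 and 916 to 1087. Taken one by one, 9 leukocyte markers fell and 1 rose with Nrf1 (*Csf1r*, log2 ratio 0.46), and 9 fell and 0 rose with Nrf2. Of the endothelial markers, 7 fell with Nrf1 and 6 with Nrf2, and 0 rose with either. Smooth muscle and pericyte markers (6 genes) summed to 33788 to 39916 with LacZ, 59229 to 60064 with Nrf1 and 47223 to 50579 with Nrf2. *Acta2* and *Tagln* made up most of this sum. Singly, 3 of the 6 rose and 3 fell with Nrf1 (list median -0.45), among them *Pdgfrb* with a log2 ratio of -1.63, and 3 rose and 2 fell with Nrf2. No marker was at 0 in any group. In bulk RNA, fewer cells of a type and less RNA per cell cannot be told apart. The part of these shifts in the rises and decreases of the members, and of the genes of the neighbouring pathways below, was not tested. *Nfe2l2*, the gene of Nrf2, averaged 3456 normalised reads with LacZ, 2860 with Nrf1 and 74612 with Nrf2, and mouse transgene reads that align to the rat gene would be counted here. No level of *Nfe2l1*, the gene of Nrf1, was obtained here, so the Nrf1 label was not checked by its transgene. The study describes similar overexpression of both proteins in NRVMs. The doses of active factor were not compared in these libraries. Their part in the differences between Nrf2 and Nrf1 samples was not tested.

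The neighbouring pathways were read from lists compiled by hand. Among 8 genes of NADPH supply, which feeds glutathione reductase, 6 rose and 1 fell with Nrf1, and 7 rose and 0 fell with Nrf2 (list medians 0.69 and 1.35). *Pgd*, of the oxidative pentose phosphate pathway, had log2 ratios of 1.34 with Nrf1 and 2.07 with Nrf2. *Taldo1* of the non-oxidative branch had 1.11 and 1.98, and the malic enzyme gene *Me1* 0.88 and 1.85. *Idh1*, the cytosolic isocitrate dehydrogenase gene, had 0.63 and 1.47. In the direct comparison all 8 genes were called in favour of Nrf2, as were *Gclc*, *Gclm*, *Gss* and *Gsr*. The mitochondrial transhydrogenase gene *Nnt* was the exception that fell with Nrf1, by 0.31, and its log2 ratio with Nrf2 was 0.03 (adjusted p = 0.577).

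Carriers that move glutathione itself were listed as well. Of 8 tested, 5 rose and 1 fell with Nrf1, and 5 rose and 0 fell with Nrf2. The efflux pumps *Abcc4* and *Abcc1* had log2 ratios of 0.52 and 0.32 with Nrf1 and of 1.5 and 0.86 with Nrf2, and *Abcc5* had 0.66 and 0.44. *Slc25a39*, which brings glutathione into mitochondria, rose by 0.29 and 0.61.

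Other enzymes of glutathione breakdown and salvage went both ways, with 2 of 10 higher and 5 lower with Nrf1 and 2 higher and 3 lower with Nrf2. *Ggt1*, which cleaves glutathione outside the cell, had log2 ratios of 1.77 with Nrf1 and 2.08 with Nrf2, from a mean of 17.3 normalised reads in LacZ samples. The peptidase genes *Dpep1*, *Dpep2* and *Anpep* had log2 ratios of -2.33, -1.41 and -1.40 with Nrf1 and of -1.10, -0.75 and -0.98 with Nrf2. *Cndp2*, which splits cysteinylglycine in the cytosol, rose by 0.66 with Nrf1 (adjusted p = 2.26e-11) and had a log2 ratio of 0.07 with Nrf2 (adjusted p = 0.107).

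Cells can also make cysteine from methionine. A list of genes of the methionine cycle, of transsulfuration and of the enzymes that consume cysteine went both ways. Of its 9 tested genes, 2 rose and 3 fell with Nrf1, and 3 rose and 2 fell with Nrf2, with list medians of 0.04 and 0.09. *Cth*, which makes cysteine from cystathionine, had a log2 ratio of -1.29 in Nrf1 samples (adjusted p = 0.000112) and of -1.31 in Nrf2 samples (adjusted p = 0.000138), at means of 48.4, 19.6 and 19.5 normalised reads. *Cdo1*, which oxidises cysteine, fell by 1.07 with Nrf1 and had a log2 ratio of -0.42 with Nrf2 (adjusted p = 0.0556). Glutaredoxins other than *Glrx* and further glutathione-using enzymes also went both ways with Nrf1, with 4 of 10 higher and 3 lower, and 4 were higher and 0 lower with Nrf2. *Hagh*, which acts on a glutathione thioester, rose by 0.52 with Nrf1 (adjusted p = 2.49e-05). *Ptges* fell by 0.74 with Nrf1, at a mean of 20.7 normalised reads in LacZ samples. *Glrx3* and *Glo1*, the most abundant of them, had log2 ratios between -0.08 and 0.10 in both comparisons with LacZ.

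The rise of *Slc7a11* with Nrf2 can be set beside the other amino acid carriers. Of 16 tested, 4 rose and 9 fell with Nrf1 and 4 rose and 8 fell with Nrf2, with medians of -0.58 and -0.14. *Slc7a5*, a light chain that shares the heavy chain *Slc3a2*, fell by 1.06 with Nrf1 (adjusted p = 1.52e-13) and by 0.57 with Nrf2. *Slc7a2*, for cationic amino acids, fell by 1.88 and 1.09, and *Slc43a1* and *Slc7a7* had log2 ratios of -1.30 and -1.27 with Nrf1 and of -0.64 and -0.76 with Nrf2. Not all carriers fell with both factors. *Slc7a6* rose by 0.49 with Nrf1 and had a log2 ratio of -0.11 with Nrf2 (adjusted p = 0.138). Like *Slc7a11*, *Slc6a9* moved in opposite directions, with -1.14 for Nrf1 and 0.28 for Nrf2. The glutamate transporter gene *Slc1a2* was close to absent, at a mean of 1.38 normalised reads with LacZ, 0.381 with Nrf1 and 14.3 with Nrf2.

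Genes of the Atf4 response fell together with *Chac1* and *Slc3a2*. Of 19 tested, 18 fell and 0 rose with Nrf1 (median -0.94), and 17 fell and 0 rose with Nrf2 (median -0.51). *Atf4* itself fell by 0.55 and 0.51, and its target *Asns*, asparagine synthetase, by 1.23 and 0.89. *Psat1* and *Aldh1l2*, of serine and folate metabolism, fell by 1.70 and 1.88 with Nrf1 and by 0.83 and 1.00 with Nrf2, and *Pck2* fell by 1.33 and 0.73. In the direct comparison 13 of the 19 were higher with Nrf2 and 1 was lower, whereas the interval for *Chac1* held 0. *Slc7a11*, which shares this annotation, had a log2 ratio of 2.11 with Nrf2, while the list median was -0.51.

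**Figure D5:**
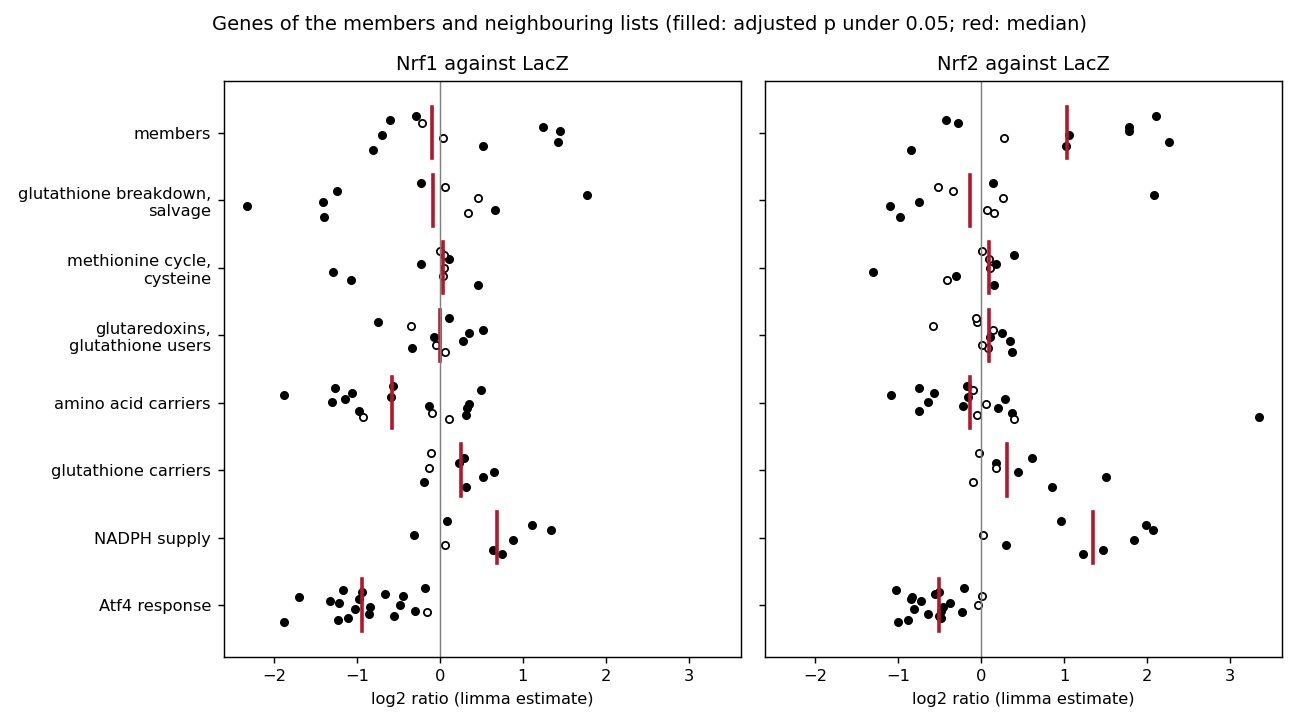
Log2 ratios (limma) of the members and of the genes of 7 neighbouring lists, with Nrf1 (left) and Nrf2 (right) against LacZ. Each dot is a gene, filled where the adjusted p is under 0.05, and the red bar is the list median. NADPH genes lie mostly to the right of 0 in both panels, and the Atf4 genes with a call all lie to the left.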

How the data were processed

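RNA of NRVMs infected with LacZ, Nrf1 or Nrf2 adenovirus was measured in 9 stranded mRNA libraries, 3 per group. Per the submitters' processing notes and the study's methods, reads were checked with FastQC 0.11.4, aligned to Rnor 6.0 with HISAT2 2.0.4, freed of duplicates with SAMtools 0.1.18 and counted with featureCounts 1.6.0. Removing duplicates from single-end reads can lower the counts of highly expressed genes. The signal deposited by the authors is the mean per group of counts divided by size factors, in 3 tables of 2 groups each. The tables also hold the authors' fold changes and p-values, which were not used. The authors' notes name edgeR 3.20.5, while the column layout is that of another package. The tables hold 0 columns of single samples.

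Each deposited group mean is the sum of 3 whole read numbers times library weights. Starting weights were found from the lowest values of both tables that hold a group and were then refitted on genes of rising level. With the refitted weights, the read numbers that give both means were searched. This step and its use were decided after the files were seen. The planned analysis expected means without replicate error, so it counted members past 1.5-fold, leaving out genes whose deposited means were both under 10. That count is given, and the limma test was added. All means, SD and n per library come from the recovered reads and not from the pooled values. A count model, planned for counts deposited per sample, was not run on the recovered reads. limma 3.58.1 in R 4.3.3 fitted log2(normalised reads + 0.5) for all 9 libraries in 1 fit with a variance trend, after median-of-ratios scaling, on genes with a group mean of at least 10, with Benjamini-Hochberg adjustment and a threshold of 0.05. Recovery and fit were also run on simulated data, with results not given here. The simulated fit gave every group the same spread between libraries, so it did not cover unequal spread between groups. Libraries of a group differed by more than sampling noise and were counted separately. Recovered totals of 7874370 to 11905027 reads set the precision.

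The members, the lists and the rule for naming genes were chosen with earlier results of these data known. Every member was named. In the lists of neighbouring pathways, up to 4 genes past 1.5-fold with the largest log2 ratios came first, except that *Hpgds* was passed over. Abundant genes not past it were named in only some of these lists. Of a list of CNC factors and partners only *Nfe2l2* was given, as a check of the label. Others of that list past 1.5-fold, among them *Keap1*, *Mafg* and *Bach1*, were left out. *Cndp2*, *Slc7a5*, *Slc7a6*, *Slc6a9*, *Hagh* and the single cell type markers were picked after their values were seen. No sequence or coordinate is given, since no rat sequence was used here.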

Additional observations from a re-analysis of the deposited data

How the results depend on the processing

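At 2-fold in place of 1.5-fold, 3 members rather than 6 were past the threshold with Nrf1, because *Slc3a2*, *Glrx* and *Chac1* changed by less than 2-fold. For Nrf2 against LacZ 6 rather than 7 were past it, and for Nrf2 against Nrf1 2 rather than 3. Requiring the limma test at any fold gave 7 members rather than 3 for Nrf2 against Nrf1. Re-centring on the median gene, scaling by summed means, a pseudocount of 1, other filters on low values and the 1.5-fold limit on limma estimates left the counts past the threshold within 1.5 times, and no direction of a member past it was reversed. When each library was left out in turn, members past 1.5-fold were counted on limma estimates from the recovered reads, not on the deposited means. Their number ranged from 5 to 6 with Nrf1, from 7 to 7 with Nrf2 and from 3 to 3 between them. The number called by limma ranged from 8 to 9, from 8 to 9 and from 7 to 7. With library totals as the scaling *Oplah* was called with Nrf1 (adjusted p = 0.0247), and with no variance trend it lost its call with Nrf2 (adjusted p = 0.0527). The causes were not tested. limma and its settings were chosen after seeing the data. No paired analysis was possible because the tables do not say which recovered library carries which replicate number. *Ggct*, *Oplah* and *Glrx* had the fewest reads, so their intervals are the widest.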
